A study of Aethionema arabicum with 12 samples.

Results

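The lipid-transfer protein genes of Aethionema arabicum seeds were taken as the gene models whose matching Arabidopsis thaliana gene is described, in any case, as lipid-transfer or lipid transfer. Of 23594 models in the table, 82 carry such a description. None of them matched the 5 Arabidopsis loci of seed storage albumins that were to be left out. Of the 82, 29 had a level of 1 CPM or more (CPM, the count scaled by its library's total) in 3 or more of the 12 libraries, and these 29 are the models described here. They match 26 Arabidopsis loci and are 29 of the 15671 models that passed the same minimum. Just inside it lay GLTP3 (AA31G00277), whose third-highest library had 1.00 CPM, and just outside lay a match of LTPG15 (AA7G00141), with 0.975 CPM. The minimum, here and below, rests on this CPM. Levels of models in CPM or RPKM below are TMM-scaled. For these, each library's total was first multiplied by edgeR's TMM scaling factor (0.927 to 1.04 over the 12 libraries).

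Lipid-transfer proteins are small secreted proteins held together by a conserved pattern of cysteines, with a hydrophobic tunnel that binds fatty acids and other lipids. They are known for carrying wax, cutin and suberin precursors to the plant surface and for roles in defence signalling, and in seeds such surface lipids seal the embryo and the seed coat. The type 1 proteins (LTP) are soluble in the wall. The LTPG proteins are tethered to the plasma membrane by a lipid (GPI) anchor, and the hybrid proline-rich proteins join a proline-rich stretch to the cysteine-rich domain. Glycolipid transfer proteins share only the words of the description: they have another fold and move sphingolipids inside the cell. By the Arabidopsis match to the lists of loci used here, the 29 models comprise 7 GPI-anchored proteins, 2 type 1 proteins, 4 hybrid proline-rich proteins, 3 glycolipid transfer proteins and 13 other members of the cysteine-rich superfamily. The last class holds every locus outside the lists, so it can include further proteins of the named types.

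A. arabicum is an annual crucifer. The groups were CYP (Cyprus accession) seeds in light, CYP seeds in darkness, TUR (Turkish accession ES1020) seeds in light and TUR seeds in darkness, with 3 libraries each. All seeds were imbibed and held for 23 h, the dark groups without light and the light groups in white light (100 µmol m-2 s-1), and whole, intact, ungerminated seeds were collected. In this species, light holds back germination of the CYP accession and not of TUR, as background. The labels do not say whether replicates came from separate seed lots, so p-values measure only the spread between these libraries. Because whole seeds were used, fewer cells of a type and less RNA per cell cannot be told apart in any result below. Reads of both accessions were counted on the same gene models. A low count in one accession can therefore also come from a gene that differs from its model or is missing. This cannot be told apart from low expression here and was not tested.

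The libraries held 7099578 to 13953792 counts, and 3 counts in one corresponded to 0.219 to 0.456 CPM, a limit of counting error only. CYP dark replicate 3 stood apart: its correlation of log2 CPM with the other CYP dark libraries was 0.978 with each, against 0.988 between those, and its effect is given beside the results it changes. Models of seed reserve genes (cruciferin CRA1, oleosins OLEO1 and OLEO2), which mark seed tissue, summed to 9299 to 10059 CPM in CYP light, 5916 to 8010.2 CPM in CYP dark, 3193 to 5934 CPM in TUR light and 2514 to 4206 CPM in TUR dark. All 4 of these models were called higher in CYP than in TUR in darkness and in light. Their part in the differences between accessions reported here was not tested.

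The 29 models made up 0.440 to 0.484% of the counted reads in CYP light, 0.517 to 0.734% in CYP dark, 0.304 to 0.378% in TUR light and 0.294 to 0.366% in TUR dark. A pair of models held most of these reads. AA53G01420 and AA17G00025 together took 86.4 to 87.4% of the family's counts in CYP light and 82.4 to 87.1% in CYP dark, against 71.5 to 76.7% in TUR light and 60.3 to 65.4% in TUR dark. The other 27 models summed to 609.98 ± 21.4 CPM in CYP light, 956 ± 58.9 CPM in CYP dark, 849 ± 12.1 CPM in TUR light and 1199.6 ± 67.4 CPM in TUR dark (SD, n = 3 each). No library of light overlapped a library of darkness of the same accession in that sum, and light was lower in both.

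**Figure D1:**
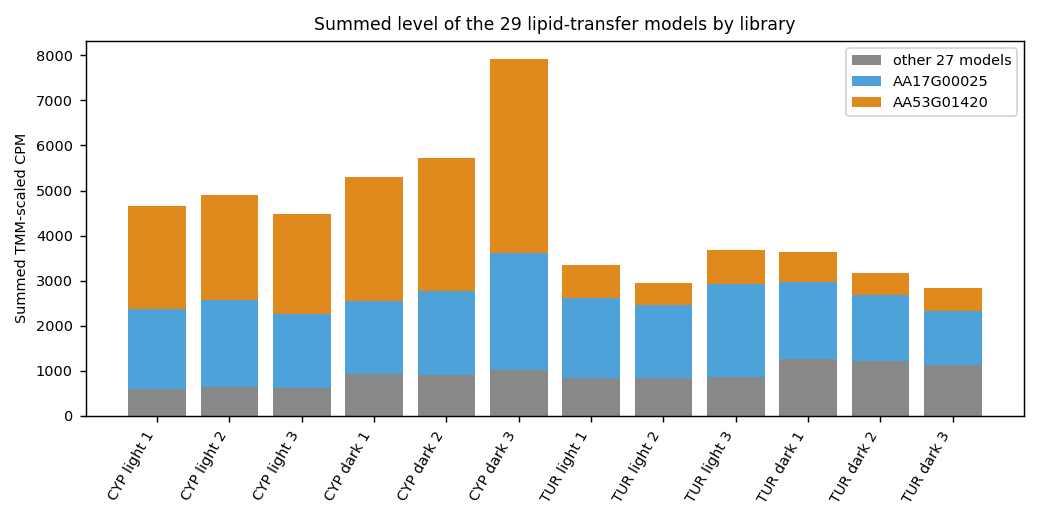
Summed level (TMM-scaled CPM, vertical axis) of the 29 lipid-transfer models in each of the 12 libraries, stacked as AA53G01420, AA17G00025 and the other 27 models. The bars of CYP libraries reach 4486 to 7927 CPM and those of TUR libraries 2838 to 3690.4 CPM, and the tallest is CYP dark replicate 3.

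Per length, AA53G01420 stood far above the rest, with 5256 ± 135 RPKM (CPM per kilobase of model length, computed from the counts) in CYP light, 7655 ± 1953 in CYP dark, 1509.7 ± 364 in TUR light and 1287 ± 234 in TUR dark (SD, n = 3). Averaged over the 4 groups, the next in level were the XYP1 match AA4G00142 (271 RPKM), AA17G00025 (232 RPKM), AA31G00563 (171 RPKM) and the LTP10 match AA32G01236 (111 RPKM). After them came AA123G00165 (83.4 RPKM), AA32G00938 (51.3 RPKM) and AA53G01406 (42.7 RPKM). AA17G00025 is 7629 bases long, against 435 bases for AA53G01420. At the low end, 10 of the 29 models stayed under 5 CPM on average in every group.

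In light, more of the family fell than rose in both accessions. In CYP seeds 10 of the 29 models fell in light (34.5%) and 1 rose, where 14.3% and 10.6% of all 15671 tested models fell and rose. In TUR seeds 8 fell (27.6%) and 1 rose, where 9.22% and 9.17% of all tested models did so. A model was called at an adjusted p under 0.05 in edgeR's quasi-likelihood test with Benjamini-Hochberg adjustment over all tested models, the source of every adjusted p below unless another tool is named. The median log2 fold change of the 29 was -0.40 in CYP and -0.35 in TUR, against -0.01 and 0.00 over all tested models.

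Some low models passed the minimum only through the group in which they were high, and had to differ, so the same counts were made for models averaging at least 5 CPM over the 4 groups. Of 17 such lipid-transfer models, 10 fell in CYP light and 5 in TUR light, where 15.3% and 9.81% of 12532 tested models of that level fell. Called in both accessions, and lower in light in each, were AA4G00142 (XYP1), AA123G00165, AA31G00563, AA32G00938 and AA26G00499. How many of all tested models were called in both was not counted, so this overlap is no result about the family. Without CYP dark replicate 3 the falls in CYP numbered 8 and the 1 rise was lost. In TUR the falls numbered 11 and the rises 2 without it, and the cause was not tested. Falls among all tested models then numbered 2032 in CYP and 1919 in TUR, against 2248 and 1445 with all libraries. Rises among all tested models numbered 1599 in CYP and 1843 in TUR, against 1661 and 1437.

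**Figure D2:**
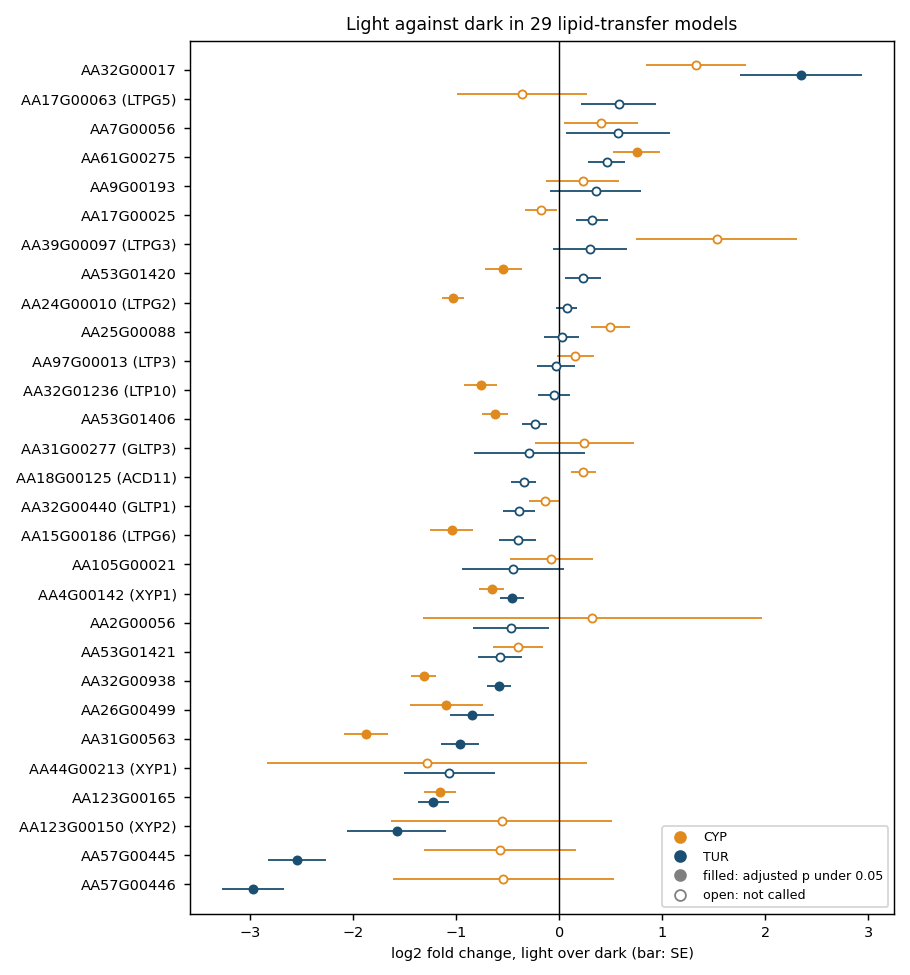
Log2 fold change of light over dark (horizontal axis, bars are SE) for each of the 29 models, CYP in orange and TUR in blue, with filled points called at an adjusted p under 0.05. In CYP 10 filled points lie left of 0 and 1 right of it, and in TUR 8 lie left and 1 right. The CYP points of AA57G00446, AA2G00056 and AA44G00213 rest on 3 or fewer reads in each group.

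Between accessions, the family was more often lower than higher in CYP. In light 16 models were lower in CYP than in TUR (55.2%) and 7 higher (24.1%), where 27.8% and 24.9% of all tested models were lower and higher. In darkness 13 were lower (44.8%) and 5 higher (17.2%), where 22.1% and 22.4% of all were. The median log2 fold change of the 29 was -0.55 in light and -0.40 in darkness, against -0.02 and 0.00 over all tested models. Among the 17 models averaging at least 5 CPM, 9 were lower in CYP in light and 6 in darkness, where 26.9% and 21.1% of all models of that level were. In both conditions 12 models were called lower in CYP and 3 higher, and no model was called in opposite directions. Among those lower, AA57G00445, AA57G00446, AA2G00056, AA39G00097, AA17G00063, AA44G00213 and AA123G00150 passed the minimum only through TUR and had to be lower. Among those higher, AA9G00193 passed only through CYP. How many of all tested models were called in both conditions was not counted, so this overlap is no result about the family. Without CYP dark replicate 3, the dark comparison gained calls for LTP10 (AA32G01236, 0.36, adjusted p = 0.0139), ACD11 (AA18G00125, 0.33, adjusted p = 0.0226) and LTP3 (AA97G00013, 0.46, adjusted p = 0.0487) as higher in CYP. It also gained XYP1 (AA4G00142, -0.28, adjusted p = 0.0382) as lower, and lost AA17G00025, AA53G01406, LTPG5 (AA17G00063) and AA9G00193. The 2 light comparisons and the 2 accession comparisons share libraries, so their counts are not independent of each other.

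**Figure D3:**
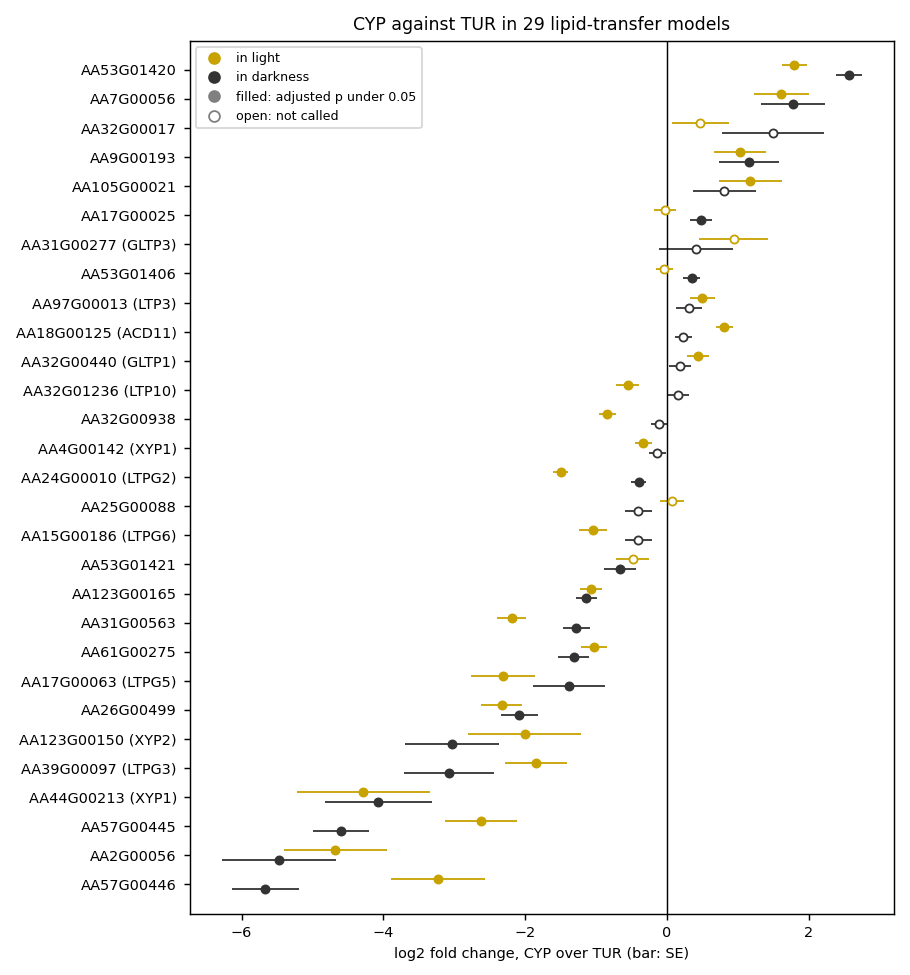
Log2 fold change of CYP over TUR (horizontal axis, bars are SE) for each of the 29 models, in light (yellow) and in darkness (dark grey), with filled points called at an adjusted p under 0.05. The top of the plot is AA53G01420, at 1.80 in light and 2.57 in darkness, and the 2 lowest rows, AA2G00056 and AA57G00446, had 3 or fewer reads in each CYP group.

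The light responses themselves differed between the accessions for 2 of the 29 models, both falling further in CYP (6.9%, where 1.83% of all tested models were called in that direction and 0.408% in the other), and the other 27 were not called. Both are among the 17 models averaging at least 5 CPM, where 2.04% of all models of that level were called lower. One of the 2 was the LTPG2 match AA24G00010. The other was AA32G00938, matched to AT2G27130. The count was 1 without any one of 6 libraries, when AA32G00938 was lost, and 3 without TUR light replicate 2, when AA53G01420 was added (-0.93, adjusted p = 0.0491). Without CYP dark replicate 3, 4 models were called in this direction, with LTP10 (AA32G01236, -0.91, adjusted p = 0.0012) and AA31G00563 (-1.04, adjusted p = 0.0256) added. Over all tested models, 287 were called in this direction with all libraries and 339 without CYP dark replicate 3. They numbered 129 to 214 without any one of those 6 libraries and 158 without TUR light replicate 2.

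Among the GPI-anchored proteins, LTPG2 (AA24G00010) was the one whose light response was called as different between the accessions. In Arabidopsis, LTPG2 acts with LTPG1 in the export of cuticular wax. It had 33.1, 41.0 and 39.5 CPM in CYP light, 88.3, 73.8 and 69.6 CPM in CYP dark, 104, 109 and 108 CPM in TUR light and 104, 106 and 95.7 CPM in TUR dark. The CYP light libraries lay below all others, and the TUR light and TUR dark libraries overlapped. LTPG2 fell in CYP light (log2 fold change -1.03, SE 0.11, adjusted p = 1.03e-06), while the TUR value was 0.07 (SE 0.10, adjusted p = 0.686). The difference between these responses was -1.10 (SE 0.15, adjusted p = 0.0005), a call kept under all 20 alternatives tried. The alternative with only the compared groups repeats the main fit here, since all 4 groups enter the difference. LTPG2 was lower in CYP than in TUR in light (-1.50, SE 0.11, adjusted p = 1.84e-09) and less so in darkness (-0.40, SE 0.10, adjusted p = 0.0045).

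The XYP1 match AA4G00142 was the most abundant of the GPI-anchored models. XYP1 is a xylogen, a proteoglycan known to promote vessel differentiation in Arabidopsis and Zinnia. It had 255, 270.0 and 284 CPM in CYP light and 384, 386 and 504 CPM in CYP dark, against 332, 327 and 359 CPM in TUR light and 529.8, 477 and 391 CPM in TUR dark. Light and dark libraries did not overlap within either accession. It fell in CYP light (-0.65, SE 0.12, adjusted p = 0.000551) and in TUR light (-0.46, SE 0.12, adjusted p = 0.0119), and the TUR call was not kept when TUR dark replicate 1 was left out (-0.36, adjusted p = 0.075). The lower level in CYP than in TUR in light (-0.33, SE 0.12, adjusted p = 0.0268) was lost without any of 5 libraries, with adjusted p = 0.0506 to 0.134.

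A further model matched to XYP1, AA44G00213, was near the limit of detection in CYP. It had 1 read in the CYP light libraries together and 2 in CYP dark, against 25 in TUR light and 56 in TUR dark. The ratio of CYP to TUR was 0.0365 (95% interval 0.000889 to 0.223) in light and 0.0523 (95% interval 0.00618 to 0.198) in darkness, and both differences were called (adjusted p = 0.000844 and 0.00027). The sources used here do not give how reads that match both XYP1 models were assigned, so the split between them is uncertain. The XYP2 match AA123G00150, of the same xylogen type, had 4 and 4 reads in CYP light and dark, against 16 and 51 in TUR light and dark. It fell in TUR light (-1.58, adjusted p = 0.0285), which did not hold in DESeq2 (adjusted p = 0.0548) or when any of TUR dark replicate 1, TUR light replicate 2 and TUR light replicate 3 was left out (adjusted p = 0.0842 to 0.168). The 3 libraries in which XYP2 reached 1 CPM were the TUR dark ones. It thus passed the minimum only through that group and had to be lower in TUR light.

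LTPG6 (AA15G00186) had 5.33, 8.65 and 5.41 CPM in CYP light and 15.8, 14.0 and 9.42 CPM in CYP dark, against 14.8, 14.0 and 11.2 CPM in TUR light and 15.6, 18.2 and 18.9 CPM in TUR dark. The CYP light libraries were below all the others. It fell in CYP light (-1.05, SE 0.21, adjusted p = 0.00102) and was lower in CYP than in TUR in light (-1.05, SE 0.20, adjusted p = 0.000261). In TUR its light value was -0.40 (adjusted p = 0.136). LTPG3 (AA39G00097) and LTPG5 (AA17G00063) were low, at most 2.49 CPM in any library. Both were lower in CYP than in TUR in light (-1.84 and -2.32, adjusted p = 0.00156 and 0.000297). In darkness LTPG5 was lower by a log2 fold change of -1.38 (adjusted p = 0.0342). LTPG3 had 3 reads in CYP dark against 40 in TUR dark, a ratio of 0.110 (95% interval 0.0217 to 0.345), also called (adjusted p = 0.000717). The LTPG5 call in darkness was lost without TUR dark replicate 2 or 3 or CYP dark replicate 2 or 3 and with only the compared groups in the fit (adjusted p = 0.0505 to 0.156). Of the 7 GPI-anchored models, LTPG3, LTPG5, XYP2 and AA44G00213 reached 1 CPM in 3 to 6 libraries, all of them TUR, and so had to be lower in CYP. The other 3 models average at least 5 CPM: LTPG2, LTPG6 and AA4G00142 were called lower in CYP in light and LTPG2 in darkness, where 26.9% and 21.1% of all models of that level were. The call of XYP2 in light (-2.01, adjusted p = 0.0412) was lost without any of 5 single libraries (adjusted p = 0.0607 to 0.204), in DESeq2, in limma and with only the compared groups.

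Of the type 1 proteins, LTP10 (AA32G01236) had 46.2, 58.1 and 47.9 CPM in CYP light and 98.9, 99.7 and 58.8 CPM in CYP dark, against 72.1, 85.2 and 66.9 CPM in TUR light and 71.0, 73.7 and 87.0 CPM in TUR dark. CYP dark replicate 3 was well below the other CYP dark libraries and just above the highest CYP light library. LTP10 fell in CYP light (-0.76, SE 0.16, adjusted p = 0.0017), while in TUR the value was -0.05 (SE 0.16, adjusted p = 0.859). The difference between the responses, -0.71 (adjusted p = 0.124), was called only without CYP dark replicate 3, as given above. LTP10 was lower in CYP than in TUR in light (-0.55, adjusted p = 0.00697), a call lost without TUR light replicate 2 (adjusted p = 0.0529).

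LTP3 (AA97G00013), of the type of protein that is induced by drought and abscisic acid in Arabidopsis, was low. It had 11.2, 11.2 and 8.70 CPM in CYP light and 10.3, 10.3 and 6.99 CPM in CYP dark, against 6.37, 7.61 and 8.09 CPM in TUR light and 8.92, 6.79 and 6.67 CPM in TUR dark. Light and dark libraries overlapped in both accessions. It was called higher in CYP than in TUR in light (0.50, SE 0.18, adjusted p = 0.0253), a call lost without TUR light replicate 1 or CYP light replicate 1 or 2 and with limma (adjusted p = 0.0639 to 0.0989). LTP3 has 7 matching models, and AA97G00013 was the one that passed. The numbers of 6 of them run in sequence, from AA97G00012 to AA97G00017, and reads shared between such copies could be counted in either.

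Of the 4 hybrid proline-rich models, 2 fell in CYP light, where 14.3% of all tested models fell. In TUR light 1 fell and 1 rose, where 9.22% and 9.17% of all did, and with 4 models these counts are no result about the class. AA53G01420, matched to AT1G62510, had 2302, 2336 and 2222 CPM in CYP light and 2745, 2941 and 4304 CPM in CYP dark, against 738, 474 and 758 CPM in TUR light and 678, 496 and 506 CPM in TUR dark. Every CYP library was above every TUR library. It was higher in CYP than in TUR by 5.95-fold in darkness (log2 fold change 2.57, SE 0.19, adjusted p = 3.22e-09) and by 3.48-fold in light (1.80, SE 0.18, adjusted p = 1.63e-07). CYP dark replicate 3 was the highest library. The fall in CYP light (-0.54, SE 0.18, adjusted p = 0.0297) was lost without that library (-0.31, adjusted p = 0.129), without any CYP light library (adjusted p = 0.0778 to 0.088) and with limma (0.104 and 0.109). In TUR the light value was 0.23 (adjusted p = 0.4), and the difference between responses was -0.77 (adjusted p = 0.131).

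AA53G01421, with the next number, matches AT1G62500, whose promoter marks the root cortex in Arabidopsis. It had 5.41, 4.54 and 6.14 CPM in CYP light and 6.29, 7.54 and 7.60 CPM in CYP dark, against 6.75, 6.61 and 9.07 CPM in TUR light and 15.7, 9.81 and 8.07 CPM in TUR dark. The groups of light and dark overlapped in TUR and not in CYP. Neither light response was called with all libraries (-0.40 in CYP and -0.57 in TUR, adjusted p = 0.256 and 0.0709). The fall in TUR light was called without TUR dark replicate 3 (-0.79, adjusted p = 0.0134) or CYP dark replicate 3 (-0.57, adjusted p = 0.0452). AA53G01421 was lower in CYP in darkness (-0.66, SE 0.23, adjusted p = 0.0233), which did not hold when TUR dark replicate 1 (-0.33, adjusted p = 0.211) or CYP dark replicate 1 (adjusted p = 0.0925) was left out. The difference in light was not called (-0.48, adjusted p = 0.0846). It was called as lower in CYP with only the compared groups (adjusted p = 0.0377) and without TUR dark replicate 1 (adjusted p = 0.0333).

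AA123G00165, matched to AT2G10940, was lowest in CYP light and highest in TUR dark. It had 41.7, 43.8 and 40.4 CPM in CYP light, 75.1, 77.4 and 129.5 CPM in CYP dark, 84.7, 83.7 and 95.4 CPM in TUR light and 222, 207 and 187 CPM in TUR dark. No library of light reached a library of darkness in CYP (-1.16, SE 0.16, adjusted p = 2.32e-05), where CYP dark replicate 3 was the highest, and the same held in TUR (-1.22, SE 0.15, adjusted p = 1.31e-05), where the fold was much the same. It was also lower in CYP than in TUR in light (-1.07, SE 0.16) and in darkness (-1.13, SE 0.15). These 4 calls held under all 20 alternatives tried. The low model AA32G00017, matched to AT4G00165, was the only rise in TUR light, with 35 reads in light against 7 in darkness (2.35, SE 0.60, adjusted p = 0.00982). The 4 libraries in which it reached 1 CPM were all light ones, so it passed the minimum only through light and had to rise. In CYP it had 54 reads in light against 14 in darkness (1.33, adjusted p = 0.0548).

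Of the 13 other superfamily models, AA31G00563, matched to AT1G73780, had the largest fall in CYP light of the 29. It had 13.6, 12.5 and 7.61 CPM in CYP light and 42.9, 46.4 and 33.3 CPM in CYP dark, against 62.9, 48.9 and 41.3 CPM in TUR light and 77.7, 102 and 119 CPM in TUR dark. Light was below darkness in every library of each accession, and the CYP and TUR libraries did not overlap within either condition. It fell in CYP light (-1.88, SE 0.21, adjusted p = 2.62e-06) and in TUR light (-0.96, SE 0.18, adjusted p = 0.00102), and the difference of -0.91 was not called (adjusted p = 0.109) with all 12 libraries. It was lower in CYP than in TUR in light (-2.19, SE 0.21, adjusted p = 7.66e-08) and in darkness (-1.28, SE 0.19, adjusted p = 2.23e-05).

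AA32G00938 had 12.3, 16.5 and 15.3 CPM in CYP light and 38.7, 35.1 and 35.9 CPM in CYP dark, against 25.6, 24.6 and 28.6 CPM in TUR light and 43.6, 36.5 and 38.3 CPM in TUR dark. The dark groups of the accessions overlapped and the light groups did not. It fell in CYP light (-1.32, SE 0.12, adjusted p = 2.07e-07) and in TUR light (-0.58, SE 0.11, adjusted p = 0.00131). The difference between the responses (-0.73, SE 0.17, adjusted p = 0.0251) was called in each of the alternatives that kept all libraries, and was lost when any one of 6 libraries was left out, namely CYP light replicate 1, CYP dark replicate 1, TUR light replicates 1 and 3, and TUR dark replicates 2 and 3 (-0.58 to -0.72, adjusted p = 0.0617 to 0.114). It was lower in CYP than in TUR in light (-0.84, SE 0.12, adjusted p = 1.25e-05). AA53G01406, matched to AT1G62790, had 39.7 ± 1.53 CPM in CYP light and 61.5 ± 11.8 CPM in CYP dark, against 40.6 ± 1.98 CPM in TUR light and 48.0 ± 6.43 CPM in TUR dark (SD, n = 3). It fell in CYP light (-0.63, SE 0.12, adjusted p = 0.00103), and its call as higher in CYP in darkness was lost without CYP dark replicate 3 (0.19, adjusted p = 0.161) or TUR dark replicate 3 (0.24, adjusted p = 0.139). The call in darkness was also lost with only the compared groups (adjusted p = 0.0851) and with limma (adjusted p = 0.0585 and 0.0586).

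AA17G00025 is matched to the proline-rich AT3G22142, which is not on the list of hybrid proline-rich loci used here, so it was counted with the other superfamily models. It was not called in either light comparison with all libraries. It had 1775, 1944 and 1655 CPM in CYP light and 1616, 1857 and 2599 CPM in CYP dark, against 1755, 1629 and 2071 CPM in TUR light and 1701, 1461 and 1205 CPM in TUR dark. Its groups overlapped in all 4 comparisons of groups, and its light responses were -0.18 in CYP and 0.32 in TUR (adjusted p = 0.443 and 0.164). Without CYP dark replicate 3 the TUR response was called as a rise (0.32, adjusted p = 0.0381). The call as higher in CYP in darkness (0.48, adjusted p = 0.0181) was lost without CYP dark replicate 3 (0.25, adjusted p = 0.1) or TUR dark replicate 3 (0.35, adjusted p = 0.101). That call was also lost with only the compared groups (adjusted p = 0.0601) and with limma (adjusted p = 0.0582 and 0.0597). AA61G00275, matched to AT3G58550, was the single rise in CYP light, with 5.17, 4.79 and 4.83 CPM in light against 2.50, 3.83 and 2.43 CPM in darkness (0.75, SE 0.23, adjusted p = 0.022). That call was lost without CYP dark replicate 1 or 3 or CYP light replicate 1 (adjusted p = 0.062 to 0.1). In TUR it had 10.8, 9.23 and 9.98 CPM in light against 8.53, 5.47 and 7.75 CPM in darkness (0.46, adjusted p = 0.0785), and it was lower in CYP than in TUR in both conditions (-1.03 in light and -1.32 in darkness).

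A pair of models matched to AT4G22460, AA57G00445 and AA57G00446, had far lower counts in CYP than in TUR, and within TUR were highest in darkness. In CPM before TMM scaling, which the minimum uses, AA57G00445 reached 1 CPM in 6 libraries and AA57G00446 in 4, all of them TUR. The levels that follow are TMM-scaled. Both thus passed the minimum only through TUR and had to be lower in CYP. AA57G00445 had 8 reads in CYP light and 8 in CYP dark, against 0.975, 1.37 and 1.74 CPM in TUR light and 9.53, 8.77 and 5.74 CPM in TUR dark. AA57G00446 had 3 reads in each CYP group, against 0.750, 0.748 and 0.982 CPM in TUR light and 6.61, 7.36 and 6.05 CPM in TUR dark. In TUR light both fell, with log2 fold changes of -2.55, SE 0.28, adjusted p = 2.67e-06, and -2.98, SE 0.30, adjusted p = 1.14e-06, the largest falls among the 29 in that comparison. AA57G00446 would not have passed the minimum without the TUR dark libraries, which favours a fall in TUR light. In darkness AA57G00445 was lower in CYP than in TUR by a log2 fold change of -4.60 (SE 0.39), and for AA57G00446 the ratio of CYP to TUR was 0.0181 (95% interval 0.00371 to 0.0536). As the models match 1 locus and have consecutive numbers, their reads may have been shared. In CYP too few reads were left to measure a light response: AA57G00445 had a log2 fold change of -0.58 with an SE of 0.74, and for AA57G00446 the ratio of light to dark was 0.658 (95% interval 0.0881 to 4.91).

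Both models matched to AT3G18280 were lower in CYP as well. AA26G00499 had 1.75, 1.20 and 0.585 CPM in CYP light and 1.90, 2.75 and 3.04 CPM in CYP dark, against 5.77, 6.86 and 5.29 CPM in TUR light and 9.69, 13.2 and 9.15 CPM in TUR dark, with no overlap between accessions. Its falls in light, -1.10 in CYP and -0.85 in TUR (adjusted p = 0.029 and 0.0106), each depended on single libraries. The CYP call was lost without CYP dark replicate 2 or 3 or CYP light replicate 2 or 3 (adjusted p = 0.0643 to 0.128), and the TUR call when TUR light replicate 3 (adjusted p = 0.0523) or TUR dark replicate 2 (adjusted p = 0.0768) was left out. The other copy, AA2G00056, had 2 reads in CYP light and 1 in CYP dark, against 56 in TUR light and 82 in TUR dark. It reached 1 CPM in 5 libraries, all of them TUR, and so had to be lower in CYP. Its ratio of CYP to TUR was 0.0326 (95% interval 0.00385 to 0.123) in light and 0.0178 (95% interval 0.000446 to 0.102) in darkness.

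The remaining superfamily models were low. AA7G00056, matched to AT1G03103, was higher in CYP than in TUR in light (3.07 ± 1.21 against 0.986 ± 0.456 CPM) and in darkness (2.28 ± 0.820 against 0.664 ± 0.112 CPM, SD, n = 3), with log2 fold changes of 1.62 and 1.78 (adjusted p = 0.00195 and 0.00395). AA9G00193 was called higher in CYP in both conditions and AA105G00021 in light, at 1.03 to 1.18 on the log2 scale, and each of these calls was lost without several single libraries (adjusted p up to 0.117). The AA9G00193 calls were also lost in DESeq2 (adjusted p = 0.0602 in darkness and 0.0572 in light). AA9G00193 reached 1 CPM in 5 libraries and AA105G00021 in 4, all of them CYP, so both had to be higher in CYP. AA25G00088, matched to AT5G55410, lay between 5.89 and 10.2 CPM in all 12 libraries and was called in no comparison with all libraries in edgeR. Its CYP light value (0.50, adjusted p = 0.0571) passed the threshold with limma (adjusted p = 0.0355 and 0.0395) and with the replicate block (adjusted p = 0.0496). It also passed without TUR light replicate 2 (adjusted p = 0.0383). In darkness its lower value in CYP than in TUR (-0.40, adjusted p = 0.0892) passed with limma (adjusted p = 0.0375 and 0.0416).

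Of the 3 glycolipid transfer models, 2 were called higher in CYP than in TUR in light, where 24.9% of all tested models were, and their light responses were not called. ACD11 (AA18G00125), a sphingolipid carrier whose loss in Arabidopsis sets off cell death, had 87.1, 82.5 and 78.0 CPM in CYP light and 79.2, 71.0 and 59.7 CPM in CYP dark, against 52.2, 44.9 and 43.7 CPM in TUR light and 53.3, 55.7 and 70.2 CPM in TUR dark. Every CYP light library was above every TUR light library, and the dark groups overlapped. ACD11 was higher in CYP than in TUR in light (0.81, SE 0.12, adjusted p = 1.78e-05), a call kept under all 20 alternatives tried. The light response was not called in CYP (0.23, adjusted p = 0.169) or in TUR (-0.35, adjusted p = 0.0547). The TUR response passed the threshold in 8 of the 20 alternatives. Among them were RLE scaling (adjusted p = 0.041), DESeq2 (adjusted p = 0.0339) and leaving out CYP dark replicate 3 (adjusted p = 0.0179). GLTP1 (AA32G00440) was also called higher in CYP in light (15.3 ± 2.94 against 11.3 ± 1.20 CPM, SD, n = 3, log2 fold change 0.44, adjusted p = 0.0233). That call was lost without TUR light replicate 1 or 3 or CYP light replicate 2 and with limma (adjusted p = 0.0578 to 0.124). The TUR light response of GLTP1 (-0.39, adjusted p = 0.0898) was called without CYP dark replicate 3 (-0.40, adjusted p = 0.0411). It was also called with only the compared groups (adjusted p = 0.0397). GLTP3 (AA31G00277) had at most 1.27 CPM in a library and was called in no comparison.

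**Figure D4:**
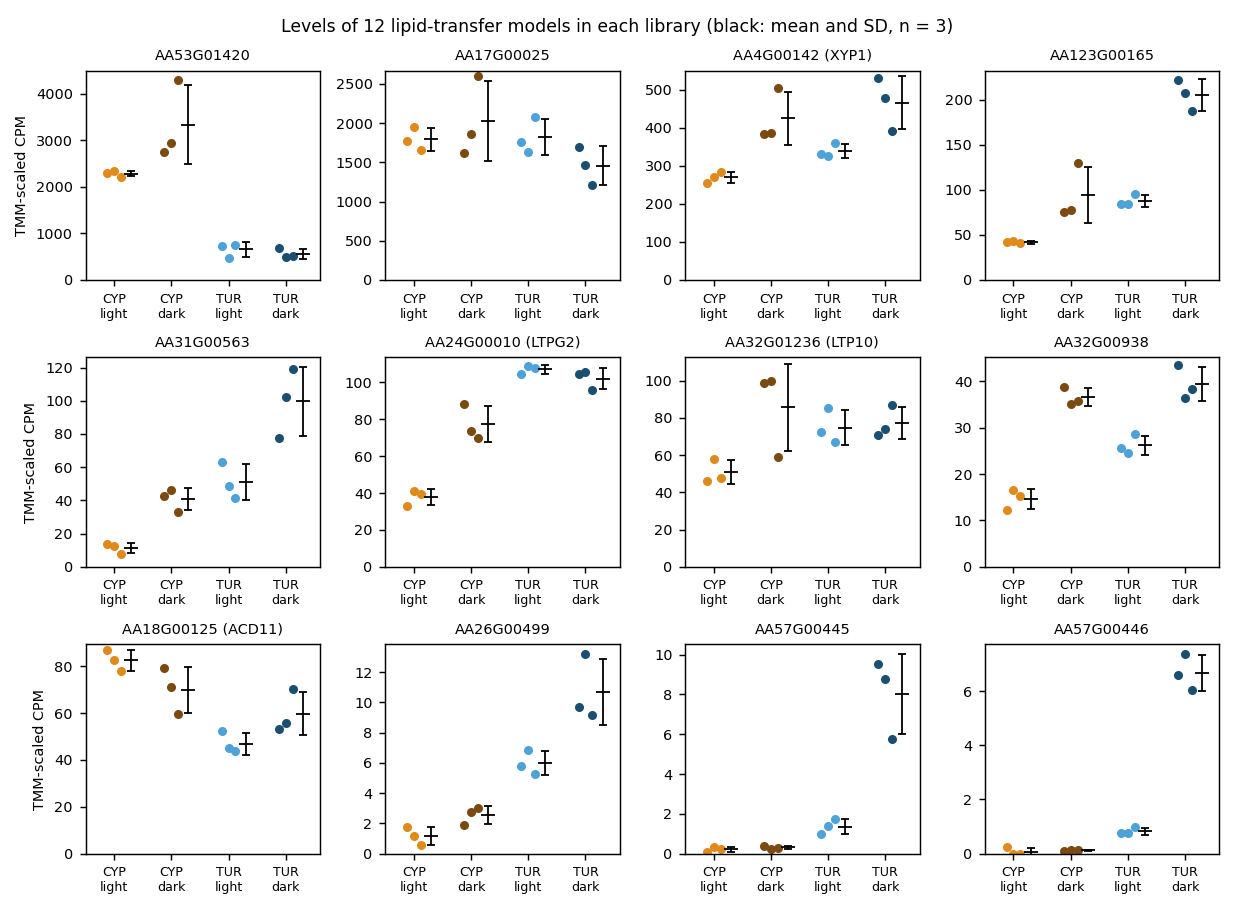
TMM-scaled CPM (vertical axes, each starting at 0) of 12 lipid-transfer models in each library of the 4 groups, with the mean and SD of the 3 libraries in black. LTPG2 (AA24G00010) is low in CYP light and level between TUR light and TUR dark, AA53G01420 is high in both CYP groups, and AA57G00445 and AA57G00446 are high in TUR dark.

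The 53 models below the minimum mostly had few or no reads in these seeds. Of them 32 had 0 reads in all 12 libraries, 11 had 1 to 9 reads in all and 10 had at least 10. None of the 9 models matched to AT5G46900, of the hybrid proline-rich type, and none of the 4 matched to LTP9 (AT2G15325) passed. Of 13 type 1 models 2 passed, of 11 GPI-anchored models 7, of 14 hybrid proline-rich models 4, of 4 glycolipid transfer models 3 and of 40 other superfamily models 13. With 0 reads, a level of up to 0.219 to 0.456 CPM per library remains possible.

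Genes that make and export the cuticle, the surface layer whose wax and cutin some lipid-transfer proteins are thought to carry, were called lower more often than higher in CYP light, and in TUR light those called were higher. Of 24 measured models of 33 cuticle loci, 8 fell and 1 rose in CYP light, where 14.3% and 10.6% of all tested models fell and rose. In TUR light 7 of the 24 rose and 17 were not called, where 9.17% of all rose. The median log2 fold change was -0.26 in CYP and 0.31 in TUR, against -0.01 and 0.00 over all tested models. The light responses differed for 7 of the 24, all lower in CYP, where 1.83% of all did. FIDDLEHEAD (FDH, AA32G01045), an epidermal fatty acid elongation enzyme, had 60.7 ± 3.37 CPM in CYP light and 141 ± 12.9 CPM in CYP dark, against 236 ± 31.2 CPM in TUR light and 178 ± 9.96 CPM in TUR dark (SD, n = 3). It fell in CYP light (-1.21, SE 0.11, adjusted p = 1.4e-07) and rose in TUR light (0.41, SE 0.10, adjusted p = 0.0104), a difference of -1.62, SE 0.15, adjusted p = 1.83e-05.

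CER6 (AA39G00688), which elongates the fatty acids of wax, rose in TUR light (0.93, SE 0.22, adjusted p = 0.00635), and its response was lower in CYP (-2.87, SE 0.47, adjusted p = 0.00218). CER1 (AA1G00145), of alkane synthesis, also rose in TUR light (0.74, SE 0.11, adjusted p = 9.86e-05), as did the lipid exporter ABCG11 (AA39G00080, 0.55, SE 0.16, adjusted p = 0.0191). In CYP light, GPAT4 (AA1G00085) of cutin synthesis fell (-1.09, SE 0.15, adjusted p = 1.88e-05), and so did the elongase subunit KCR1 (AA134G00031, -0.70, SE 0.12, adjusted p = 0.000247). BDG1 (AA53G01277), needed for a normal cuticle, had a lower light response in CYP than in TUR (-2.13, SE 0.48, adjusted p = 0.0246). Of 8 measured models of 14 suberin loci, 1 fell in CYP light, and in TUR light 1 rose and 1 fell, near the 14.3%, 9.17% and 9.22% of all tested models. FAR1 (AA8G00268), which makes the fatty alcohols of suberin, fell in both accessions (-1.92, SE 0.27, adjusted p = 3.52e-05 in CYP and -0.90, SE 0.20, adjusted p = 0.00381 in TUR).

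Tissue markers also moved with the groups. The 8 epidermis models (PDF1, ATML1, PDF2, FDH, CER6 and ACR4) summed to 205 to 212 CPM in CYP light and 316 to 371 CPM in CYP dark, against 384 to 483 CPM in TUR light and 349 to 408 CPM in TUR dark. In CYP light 4 of the 8 fell, where 14.3% of all tested models fell, with PDF1 (AA21G00071, an epidermal marker) at -2.66, SE 0.21, adjusted p = 3.63e-08, and in TUR light 2 rose (FDH and CER6), where 9.17% of all rose, and PDF1 fell (-1.48, SE 0.20, adjusted p = 3.02e-05). ATML1 (AA57G00375), the factor that sets epidermal identity, averaged 66.2 ± 2.21 CPM in CYP light and 62.5 ± 5.14 CPM in CYP dark, against 67.5 ± 7.48 CPM in TUR light and 59.4 ± 1.97 CPM in TUR dark (SD, n = 3), and was not called in either light comparison. PDF2 (AA6G00252) fell in CYP light (-0.39, SE 0.09, adjusted p = 0.00525), and FDH and CER6 also stand in the cuticle list. The endosperm list rested on NCED6 (AA78G00012), which fell in CYP light (-0.82, SE 0.21, adjusted p = 0.00758) and in TUR light (-2.06, SE 0.26, adjusted p = 1.46e-05). BAN, MUM2 and DELTA-VPE of the seed coat list stayed below the minimum, and its 3 measured models (MUM4, TTG2 and GL2) summed to 45.8 to 48.0 CPM in CYP light and 40.9 to 49.1 CPM in CYP dark, against 68.7 to 83.9 CPM in TUR light and 73.9 to 80.1 CPM in TUR dark. TTG2 (AA60G00054) rose in CYP light (1.56, SE 0.16, adjusted p = 1.11e-06) and in TUR light (1.00, SE 0.15, adjusted p = 0.000117), and MUM4 (AA15G00120) fell in CYP (-0.94, SE 0.17, adjusted p = 0.000628). Of the reserve genes, OLEO2 (AA87G00124) rose in CYP light (1.20, SE 0.19, adjusted p = 0.000101) and in TUR light (0.74, SE 0.18, adjusted p = 0.00888), and OLEO1 (AA131G00012) in CYP light (0.82, SE 0.19, adjusted p = 0.00366). The part of these tissues in the lipid-transfer results was not tested.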

How the data were processed

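For every A. arabicum gene model the deposited table holds raw counts and RPKM per library, a model length and the matching TAIR10 gene, per the file headers. Bowtie2 2.2.3, HTSeq 0.6.1, Trimmomatic and bcl2fastq 2.17.1 are named in the submitters' processing notes, with no roles. Per the labels' protocols, poly(A) RNA was made into Lexogen SENSE libraries. Not given in the sources used here are the genome release, the use of strand, the counting of shared reads and what the model length covers. RPKM as deposited by the authors was not used: it equals count per length and column total for 100% of non-zero CYP values and for under 0.06% of TUR values (0.0344 to 0.0567% per library). RPKM here was computed from the counts, with TMM scaling except in the limma alternatives.

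Models with at least 1 CPM in 3 libraries were tested with edgeR 4.0.16 (R 4.3.3): TMM scaling, 4 group means fitted to all 12 libraries, quasi-likelihood test, Benjamini-Hochberg adjustment over 15671 models, called under 0.05. SE is the log2 fold change over the root of the F statistic. Where a group held 1 to 3 reads, a ratio of summed reads with its exact 95% binomial (Clopper-Pearson) interval is given, which covers counting error only. The members and gene lists were chosen with earlier results of these data known. Named were, per comparison, up to 6 called rises and 6 called falls of at least 5 CPM, the 8 models of highest RPKM and every match of a lipid-transfer locus with a symbol. Of the cuticle and suberin lists, the 3 largest called rises and falls of at least 5 CPM were named, and of the tissue markers those called in a light comparison. Others (AA25G00088, AA7G00056, AA9G00193, AA105G00021, AA2G00056 and AA32G00017 among them) were added after their values were seen, to account for the whole family. Alternatives were RLE scaling, DESeq2 1.42.0, other filters, only the compared groups, the replicate block, limma 3.58.1 with a trended spread on log2(RPKM + 1) and log2(RPKM + 5), and leaving out each library. For the difference between responses, the alternative with only the compared groups repeats the main fit, since all 4 groups enter it. The test was tested on simulated data.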

Additional observations from a re-analysis of the deposited data

Results flagged for a closer look

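A pair of models had light responses that differed between the accessions by the test of the difference itself. LTPG2 (AA24G00010) changed by -1.03 on the log2 scale in CYP light and by 0.07 in TUR light, a difference of -1.10 (SE 0.15, adjusted p = 0.0005 in edgeR). All 3 CYP light libraries were below all CYP dark libraries, and the TUR groups overlapped. AA32G00938 changed by -1.32 in CYP light and by -0.58 in TUR light, a difference of -0.73 (SE 0.17, adjusted p = 0.0251), with light below darkness in all libraries of both accessions. The LTPG2 call held under all 20 alternatives, and that of AA32G00938 was lost when any one of 6 libraries was left out (adjusted p = 0.0617 to 0.114). For both differences, the alternative with only the compared groups repeats the main fit.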

How the results depend on the processing

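Of 63 called results of single models, 44 kept their call under all alternatives tried for them (19 or 20 each), 19 lost it in at least 1, and 0 changed sign under RLE scaling, DESeq2, limma, the filters, the replicate block or any library left out. Of 82 results not called, 26 gained a call in at least 1. Counts of falls in light within an accession stayed within 1.5 times. The rise in TUR light, 1 in all libraries, was 0 with a minimum of 5 CPM, 2 with limma on log2(RPKM + 5), and 1 to 2 without single libraries. Over all tested models, rises there numbered 1305 with that minimum and 1517 with that limma setting, against 1437. The rise in CYP light, also 1, was 2 with the replicate block, 4 and 3 with limma on log2(RPKM + 1) and log2(RPKM + 5), and 0 to 2 without single libraries. Over all tested models, rises there numbered 1589 with the replicate block and 1804 and 1809 with limma, against 1661. For the difference between responses, responses higher in CYP numbered 1 (ACD11) in DESeq2 and 2 with either limma setting, against 0 in edgeR (2 at an unadjusted p under 0.05), and responses lower in CYP, 2, ranged from 1 to 4 without single libraries. Over all tested models, responses higher in CYP numbered 124 in DESeq2 and 67 and 104 with limma, against 64. Responses lower in CYP, 287 over all tested models, ranged from 129 to 339 without single libraries. Models higher in CYP in darkness, 5, were 3 with a minimum of 5 CPM, with only the compared groups and with limma on log2(RPKM + 5), and 4 to 5 without single libraries. Over all tested models, those higher there numbered 3015, 2951 and 2815 in these settings, against 3509. Models lower there, 13, were 8 with that minimum, where all tested models lower numbered 3089, against 3458. Models higher in CYP in light, 7, were 4 with that minimum and 4 to 7 without single libraries. Over all tested models, those higher in light numbered 3470 with that minimum, against 3906. A minimum of 5 CPM removes low models by construction; the cause of the other changes was not tested. The replicate numbers did not pair the libraries: deviations of same-numbered libraries correlated at -0.33 to 0.16, with 3 of 18 pairs above 0.1, and the replicate block moved no count of falls. At the lowest depth, 0 reads leave a level of up to 0.456 CPM possible.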

Other observations

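The models AA57G00445 and AA57G00446, high in TUR dark, are followed by number by AA57G00447 and AA57G00448, which match AT4G22490 and stayed below the minimum. AA57G00447 had 0 reads in CYP light and 0 in CYP dark, against 7 in TUR light and 5 in TUR dark, and AA57G00448 had 0 and 1 in CYP, against 15 and 6 in TUR. So 4 models with consecutive numbers had at most 8 reads each in a CYP group. Whether CYP carries these genes, and with the same sequence, was not tested. The counts of the last 2 are too low for a test, and they were singled out after their values were seen.

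Of the 3 loci with more than 1 passing model, XYP1 and AT3G18280 had copies of unlike read number. Of the XYP1 copies, AA4G00142 averaged 425 ± 69.0 CPM in CYP dark and 466 ± 70.1 CPM in TUR dark (SD, n = 3), while AA44G00213 had 2 reads in CYP dark against 56 in TUR dark. Of the AT3G18280 copies, AA26G00499 had 62 reads in CYP dark against 384 in TUR dark, and AA2G00056 had 1 read in CYP dark against 82 in TUR dark.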
